A study of Mus musculus with 36 samples.

Results

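The keratins of simple and basal epithelium measured here are 8 genes, the simple keratins Krt7, Krt8, Krt18 and Krt19 and the basal keratins Krt5, Krt14, Krt15 and Krt17. They were chosen by symbol out of 18194 gene symbols on the array, and 13 of its 45101 probe sets carried 1 of these symbols and no other. A probe set is a group of short probes that reports a transcript, and the probe set with the highest mean over all 36 arrays stood for its gene. The signals come from the fourth inguinal mammary glands of female C57BL/6 fetuses at embryonic day 19 (E19), in which the ductal epithelium and the stroma around the ducts were captured separately by laser from the sections of 1 gland per fetus. The dams carried pumps from E8 that released bisphenol A (BPA) at 250 ng/kg/day, the synthetic estrogen ethinylestradiol (EE2) at 10 ng/kg/day, or the vehicle alone, which was dimethylsulfoxide in solution. Fetuses of crosses between heterozygous parents either lacked both copies of the gene for estrogen receptor α, ERα(−/−), called ERKO here, or were wild type, ERα(+/+), called WT. Each of the 12 groups of compartment, genotype and exposure had 3 arrays, and each group drew 1 fetus from a litter. The dam was the unit exposed, and a treated litter could give 1 fetus of each genotype. WT and ERKO fetuses of an exposure may thus be littermates, which the labels do not show. The RNA of these small captures was amplified before hybridization.

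Keratins are the intermediate filament proteins of epithelial cells and assemble from pairs of a type I chain (Krt14, Krt15, Krt17, Krt18, Krt19) and a type II chain (Krt5, Krt7, Krt8). Krt8 with Krt18 is the pair of simple and luminal epithelium, and Krt5 with Krt14 is the pair of the basal layer of stratified epithelia and of mammary basal cells. In the fetal mammary gland the ducts are still cords of epithelial cells in which luminal and basal keratins can occur in the same cell.

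The type I members other than Krt18 lie within 1 cluster on chromosome 11 and the type II members with Krt18 within the other on chromosome 15 (build GRCm38.p6, RefSeq). Krt8 (chr15:101996711-102004342, minus strand) and Krt18 (chr15:102028216-102032026, plus strand) lie there on opposite strands. For 4 of the 8 keratins the reference table held a window ending at the annotated start of the gene. Its 250 bases before the start are shown because these genes were higher in the epithelium together. They come from RefSeq on GRCm38.p6, read 5′ to 3′ on the strand of the gene, at chr15:102004343-102004592 for Krt8, chr15:102027966-102028215 for Krt18, chr15:101412153-101412402 for Krt7 and chr15:101712906-101713155 for Krt5. Capitals mark matches on either strand to 4 motifs. The letters searched for a sequence like a TATA box, chosen after the windows were seen, were ATAAAAG. For the GC box they were GGGCGG, for the factor family AP-2 they were GCCNNNGGC, and for the GATA factors they were AGATAAG.
Krt8: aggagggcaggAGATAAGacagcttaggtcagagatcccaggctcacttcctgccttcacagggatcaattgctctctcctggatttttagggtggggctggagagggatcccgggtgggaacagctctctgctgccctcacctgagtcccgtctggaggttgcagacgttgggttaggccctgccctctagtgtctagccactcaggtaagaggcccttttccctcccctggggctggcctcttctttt
Krt18: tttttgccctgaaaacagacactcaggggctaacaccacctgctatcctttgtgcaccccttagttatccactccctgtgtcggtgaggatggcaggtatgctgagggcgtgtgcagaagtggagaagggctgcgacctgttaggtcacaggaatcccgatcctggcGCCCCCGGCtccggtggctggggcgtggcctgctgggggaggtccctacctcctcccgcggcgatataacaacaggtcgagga
Krt7: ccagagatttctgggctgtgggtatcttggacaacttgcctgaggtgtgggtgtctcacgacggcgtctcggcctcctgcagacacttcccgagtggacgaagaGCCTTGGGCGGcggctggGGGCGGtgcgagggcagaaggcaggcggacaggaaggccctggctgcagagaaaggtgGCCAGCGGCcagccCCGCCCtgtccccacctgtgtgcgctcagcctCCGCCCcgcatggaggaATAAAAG
Krt5: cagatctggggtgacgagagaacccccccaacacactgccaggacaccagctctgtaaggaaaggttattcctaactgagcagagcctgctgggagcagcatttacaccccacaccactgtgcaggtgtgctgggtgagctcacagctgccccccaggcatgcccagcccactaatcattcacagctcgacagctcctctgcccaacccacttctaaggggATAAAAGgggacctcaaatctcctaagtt
The TATA-like letters stood in 2 of these 4 promoters, Krt5 and Krt7, against 4.83% of 32851 promoters of the same length. The AP-2 letters stood in 2 (Krt7 and Krt18, 13.7% of all promoters), the GC box in Krt7 (32.7%) and the GATA letters in Krt8 (2.74%), and in Krt7 an AP-2 match overlapped a GC box. TATAAA (12.4%) and the AP-1 letters TGANTCA (6.75%) were in none of the 4 windows. Krt5 had the TATA-like letters 29 to 23 bases before its start and Krt7 at 7 to 1. These matches are descriptions of the letters and not sites.

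Some arrays stood apart. Array medians ran between 10.9 and 66.8, both compartments of WT vehicle gland 2 being the dimmest of their compartment (10.9 in the epithelium, 12 in the stroma), and the 3′ to 5′ ratio of the Gapdh control probe sets ran between 5.09 and 20.8. That of the Actb control probe sets ran between 0.605 and 1.44. WT vehicle gland 3 carried transcripts of keratinised epidermis in both captures. Krt1, a keratin of differentiating epidermis, had a signal of 6297 in its epithelium and 6276 in its stroma, against at most 232.5 in any other epithelium array and at most 92.0 in any other stroma array. The summed signal of 14 markers of keratinised epidermis was 15632 and 23266 in the epithelium and stroma of this gland, and between 108 and 958 in the other 34 arrays. Its epithelium array also had the highest sums of fibroblast markers (42994) and of smooth muscle and myoepithelial markers (9254) among epithelium arrays. Its sums of adipocyte (43568) and endothelial markers (4539) were the highest among vehicle epithelium arrays. Values without this gland stand beside the results that it moved most. Esr1, the gene deleted in ERKO, had overlapping signals in ERKO (1.6 to 100.2 in the epithelium and 13.9 to 81.8 in the stroma) and in WT (1.1 to 142.0 and 20.3 to 396.7), and whether its probes lie in the deleted part is not given in the sources used here. The 15 measured epithelial markers summed to between 10057 and 18457 in the 18 epithelium arrays and between 1256 and 4757 in the 18 stroma arrays.

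All 8 keratins were higher in the epithelium than in the stroma of the same gland, between 3.99-fold for Krt15 and 22.3-fold for Krt8. The comparison was made in limma on the 36 arrays, each gland being a block. Captures with the same genotype, exposure and replicate number were taken as the same gland, which the labels do not state. P-values were adjusted by Benjamini-Hochberg, and 16.8% of the 45101 probe sets were called higher in the epithelium. The median log2 difference was 3.27 over the 8 keratins (3.60 for the simple and 3.27 for the basal members) and 0.35 over all probe sets. Of 9607 probe sets called, 7573 were higher in the epithelium, against 2897 of 6705 with the median of each array subtracted and 3667 of 7274 after quantile normalization, and the 8 keratins were called higher under both scalings. The size of the difference depended on how low signals were treated. With 16 added before log2 it was 0.74 for Krt15, 1.10 for Krt7, 1.99 for Krt19, 2.32 for Krt17 and 2.55 for Krt5, and with the mean over all probe sets of a gene 1.70 for Krt17 and 2.75 for Krt14, all still called. Less RNA per cell and fewer keratin-bearing cells cannot be told apart in such captures, and precision is limited by how many arrays there are.

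**Figure D1:**
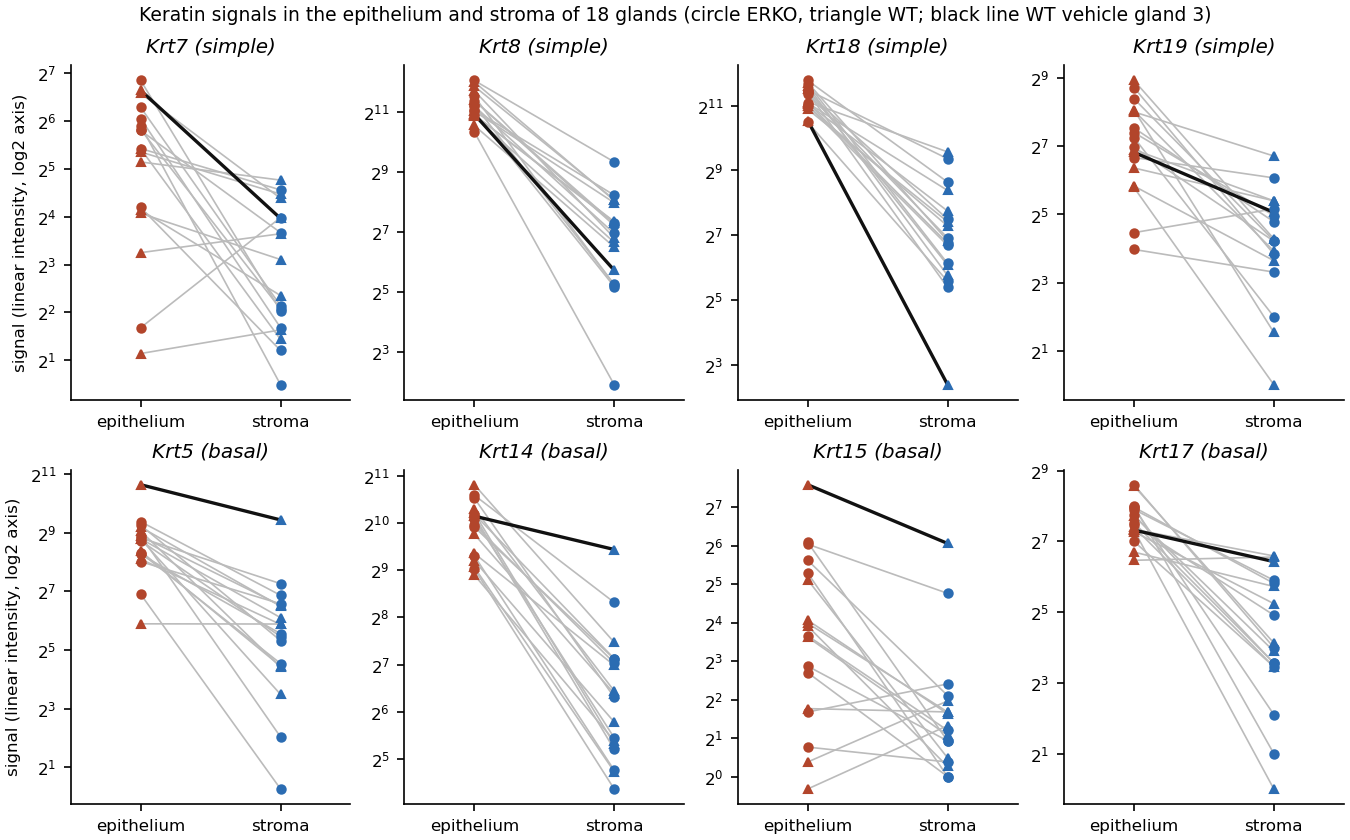
Signal of each keratin (linear intensity on a log2 axis) in the epithelium and the stroma of 18 glands, each line joining the 2 captures of a gland, circles ERKO and triangles WT, with WT vehicle gland 3 as a black line. Krt8 and Krt18 were lower in the stroma of each gland without overlap, while the stroma of the black line was the highest for Krt5, Krt14 and Krt15.

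Krt8, the type II keratin of simple epithelium, had signals of 1288 to 4223 (median 2239) in the epithelium and of 3.8 to 646 (median 137) in the stroma. The log2 difference was 4.48 (standard error 0.33, adjusted p = 3.42e-08 from limma). Its type I partner Krt18 had signals of 1434 to 3520 (median 2440) in the epithelium and of 5.20 to 762 (median 117) in the stroma, a log2 difference of 4.33 (standard error 0.36, adjusted p = 9.92e-08 from limma). For both genes the lowest epithelium array lay above the highest stroma array, in 2 of the 8 keratins and 0.191% of all probe sets. The single probe set of Krt18 and the 3 of Krt8 gave like differences, the other Krt8 probe sets having 4.23 and 4.65 on the log2 scale.

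The levels of this pair varied little in the epithelium and widely in the stroma. The SD of the log2 signal was 0.47 for Krt8 and 0.38 for Krt18 over the 18 epithelium arrays, against 1.65 and 1.66 over the 18 stroma arrays. The lowest and highest stroma arrays were not the same for the partners. Krt8 was lowest in the stroma of ERKO vehicle gland 1 (3.8, where Krt18 had 47.7) and Krt18 in that of WT vehicle gland 3 (5.2, where Krt8 had 53.2). Krt8 was highest in the stroma of ERKO vehicle gland 3 at 645.9, where Krt18 had 658.1, and Krt18 in that of WT vehicle gland 2 at 762.3, where Krt8 had 156.9. The stroma of ERKO vehicle gland 3 also had the highest sum of the 15 epithelial markers among stroma arrays (4757, median 2357) and the highest signal of Epcam, an adhesion protein of epithelial cells, at 2423. The part of these markers in its keratin signals was not tested.

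Krt19, a type I keratin of simple epithelium without a fixed partner, had signals of 15.7 to 490 (median 140) in the epithelium and of 1.00 to 105 (median 19.1) in the stroma. It was higher in the epithelium by 2.87 on the log2 scale (standard error 0.46, adjusted p = 0.000153 from limma), in 17 of 18 glands, the exception being ERKO vehicle gland 1 (22.1 in the epithelium and 35.9 in the stroma). Krt7, a type II keratin of ducts and glands, had signals of 2.20 to 115 (median 42.9) in the epithelium and of 1.40 to 27.2 (median 6.85) in the stroma. Its log2 difference was 2.12 (standard error 0.47, adjusted p = 0.00289 from limma), and it was higher in the epithelium of 15 of 18 glands. The compartments overlapped for both genes.

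The 3 glands with less Krt7 in the epithelium than in the stroma were ERKO vehicle gland 1 (3.2 against 15.8), WT EE2 gland 1 (2.2 against 3.1) and WT vehicle gland 2 (9.5 against 12.5). ERKO vehicle gland 1 was thus the exception for Krt19 too, and its epithelium had the lowest Krt8 and Krt18 of all epithelium arrays, 1288 and 1434.

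Krt14, the type I keratin of basal cells, had signals of 477 to 1797 (median 1044) in the epithelium and of 20.6 to 694 (median 81.4) in the stroma, a log2 difference of 3.55 (standard error 0.27, adjusted p = 4.65e-08 from limma). Its partner Krt5 had signals of 59.3 to 1585 (median 442) in the epithelium and of 1.20 to 690 (median 52.7) in the stroma, with a log2 difference of 3.21 (standard error 0.41, limma adjusted p = 1.40e-05). Krt14 and Krt5 were higher in the epithelium of 18 of 18 glands, which held for Krt8 and Krt18 as well and for 1.57% of all probe sets. In WT vehicle gland 2 the margin of Krt5 was 59.3 in the epithelium against 59.0 in the stroma. The brighter of the other Krt14 probe sets gave 3.65, and another, dim one with a mean signal of 6.21 gave 1.05 (adjusted p = 0.0507 from limma).

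Krt17, a type I keratin of basal and stress-responsive epithelium, had signals of 88.4 to 389 (median 180) in the epithelium and of 1.00 to 96.3 (median 16.8) in the stroma. Its log2 difference was 3.33 (standard error 0.47, adjusted p = 4.49e-05 from limma), and it was higher in the epithelium of 17 of 18 glands, WT EE2 gland 2 being the exception (88.4 in the epithelium and 94.3 in the stroma). A dim second probe set of Krt17, with a mean signal of 11.7, showed no such difference (0.07, adjusted p = 0.908 from limma). Krt15, a type I keratin of basal and stem-like cells of stratified epithelium, was dim, with signals of 0.800 to 192 (median 13.8) in the epithelium and of 1.00 to 66.5 (median 2.40) in the stroma. It was higher in the epithelium by 2.00 (standard error 0.47, adjusted p = 0.00443 from limma), in 15 of 18 glands, with overlap.

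WT vehicle gland 3 had the highest stroma signals of Krt5 (689.9), Krt14 (693.9) and Krt15 (66.5) among all stroma arrays. The next highest stroma arrays had 153.1 for Krt5 (ERKO EE2 gland 2), 319.0 for Krt14 (ERKO BPA gland 2) and 27.1 for Krt15 (ERKO EE2 gland 2). In its epithelium Krt5 (1585) and Krt15 (192) were the highest of the 18 arrays, while Krt14 (1133) lay inside the range of the others. The gland's stroma had only 5.2 for Krt18 and 144.3 for Epcam, the lowest of all stroma arrays for both. Krt1, Krt10, Lor and the epidermis sum were the highest of their compartment in both captures of this gland. Their part in the signals of these basal keratins was not tested. Without this gland the log2 differences between the compartments were 3.32 for Krt5, 3.72 for Krt14 and 2.02 for Krt15, and all 8 keratins were still called.

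**Figure D2:**
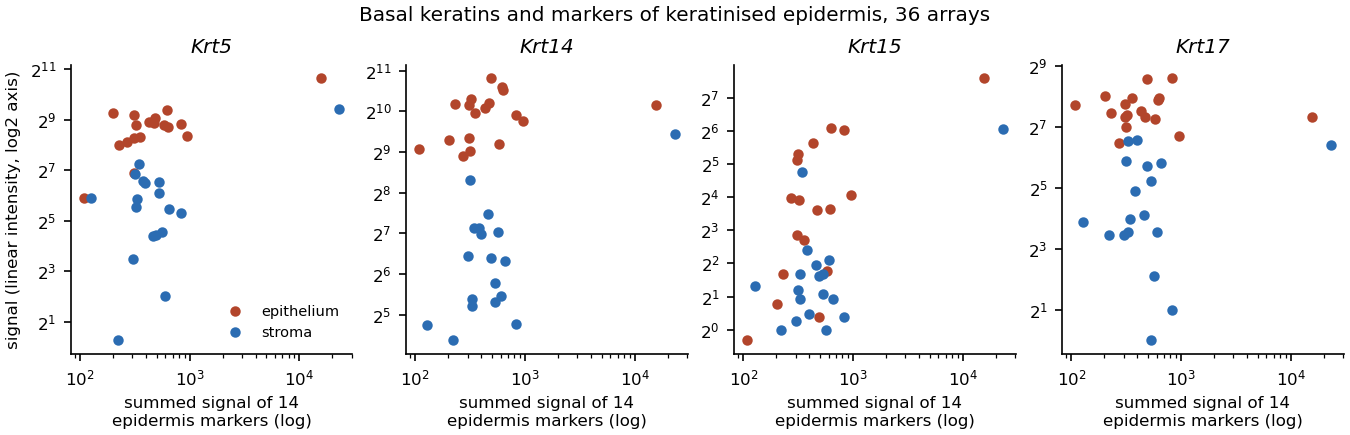
Signal of the basal keratins (linear intensity, log2 axis) against the summed signal of 14 markers of keratinised epidermis (log axis) on the 18 epithelium and 18 stroma arrays. The 2 arrays of WT vehicle gland 3, with sums of 15632 and 23266, lie to the right of all others, and their Krt5 and Krt15 signals are the highest of their compartments.

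The difference between the compartments had the same direction for all 8 keratins in each of the 6 groups of genotype and exposure. With 3 glands a group, the number called by limma was 2 in ERKO BPA (Krt8 and Krt14), 4 in ERKO EE2 (Krt8, Krt18, Krt14 and Krt17), 2 in ERKO vehicle (Krt8 and Krt14), 1 in WT BPA (Krt14), 0 in WT EE2 and 0 in WT vehicle. The shares of all probe sets called higher in the epithelium in these groups were 0.149% in ERKO BPA, 0.887% in ERKO EE2, 0.155% in ERKO vehicle, 0.388% in WT BPA, 0.173% in WT EE2 and 0.0576% in WT vehicle. The members' median log2 difference was 3.93 in ERKO BPA, 4.13 in ERKO EE2, 3.17 in ERKO vehicle, 3.70 in WT BPA, 3.37 in WT EE2 and 2.15 in WT vehicle. Krt5 was lowest in WT vehicle at 1.30 (standard error 0.98), or 1.35 without the gland with epidermal transcripts, and highest in ERKO BPA at 4.14 (0.98). Without that gland the WT vehicle difference was 2.51 in place of 4.39 for Krt18, 3.35 in place of 2.47 for Krt14 and −0.01 in place of 0.89 for Krt7, so that the direction of Krt7 in this group rested on it. The numbers called without it were 2 in ERKO BPA (Krt18 and Krt14), 4 in ERKO EE2 and 2 in ERKO vehicle (the same genes as with it), 2 in WT BPA and 2 in WT EE2 (Krt18 and Krt14 in both) and 0 in WT vehicle.

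Whether these differences depended on exposure or genotype was tested in the same fit. None of the 8 differed for BPA against vehicle, EE2 against vehicle or ERKO against WT at an adjusted p under 0.05 in limma, and 0% of all probe sets did in each test. The members' smallest adjusted p were 0.659 for BPA (Krt15, whose difference was larger by 2.18, standard error 1.08), 0.703 for EE2 (Krt5, larger by 1.83, standard error 0.98) and 0.925 for ERKO. Krt8 was the only member whose difference between the compartments was smaller with both exposures, with log2 changes of −0.78 for BPA and −0.88 for EE2 (standard error 0.85 each).

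**Figure D3:**
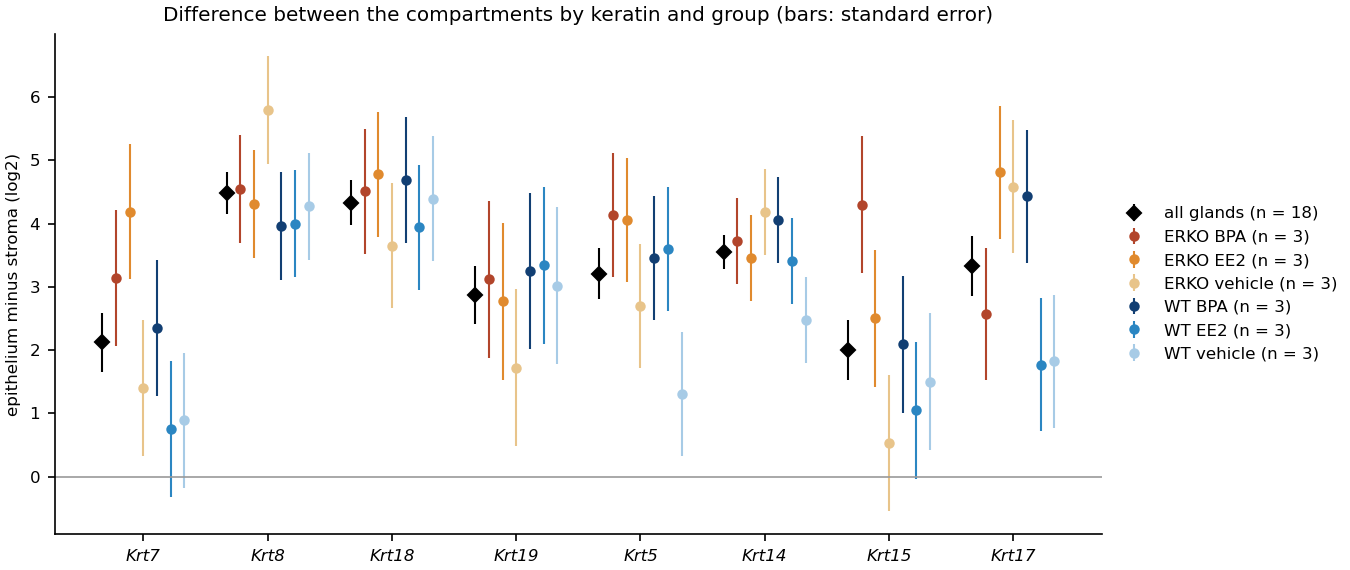
Log2 difference between epithelium and stroma for each keratin over all 18 glands (black diamonds) and in the 6 groups of 3 glands, with standard errors from limma as bars. Every point lies above 0, from 0.53 for Krt15 in ERKO vehicle to 5.79 for Krt8 in ERKO vehicle.

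Other genes of the keratin network were read from a list of 14 linkers, the desmosome and hemidesmosome proteins that anchor keratin filaments. Of these, 11 were higher and 1 lower in the epithelium, with a median log2 difference of 2.24 against 0.35 over all probe sets, of which 4.51% were called lower. Eppk1, a plakin of the epithelial cytoskeleton, was higher by 4.05 (standard error 0.34, adjusted p = 9.19e-08 from limma), and Ppl, a plakin of desmosomes and the cornified envelope, by 4.0. Pkp1, a plakophilin of desmosomes, was higher by 3.54 and Dsp, the main plakin of desmosomes, by 3.52. Dst, which has isoforms in muscle and nerve besides that of hemidesmosomes, was lower, at −1.06 (adjusted p = 0.00399 from limma). Plec and Cd151 did not pass, at 0.35 and 0.12.

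Among 18 transcription and splicing regulators of epithelia, 16 were higher in the epithelium and 1 lower, with a median of 2.13. Gata3, a factor of luminal cells, was higher by 5.48 (standard error 0.38, adjusted p = 1.53e-08 from limma), Elf5 and Ehf, ETS factors of glandular epithelium, by 5.17 and 5.08, and Esrp1, a splicing regulator of epithelial cells, by 5.16. Trp63, the factor of basal cells, was higher by 1.13 (adjusted p = 0.0417 from limma), Tfap2a and Tfap2c by 3.75 and 1.84. Klf4 was lower, at −1.71 (adjusted p = 0.000147 from limma), and Ovol1 did not pass at 0.92. All 15 epithelial markers were higher, and of the markers of other cells all 16 of fibroblasts, 9 of adipocytes and 11 of endothelium and 10 of 11 of leukocytes were lower. Of 12 markers of skeletal muscle, Des was lower, at −1.66, and the others did not pass. Over all probe sets 16.8% were called higher and 4.51% lower. Of 9 markers of smooth muscle and myoepithelium, the contractile basal cells of the later gland, 1 was higher (Oxtr, the oxytocin receptor, 4.72) and 4 were lower, and Acta2 did not pass at −0.51.

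In the epithelium, none of the 8 keratins differed with BPA, EE2 or genotype at an adjusted p under 0.05 in limma over the 6 groups of the compartment. Over all probe sets the called share was 0% for BPA against vehicle, 0.00222% for EE2 against vehicle, 0% for BPA against EE2 and 0% for ERKO against WT. At an unadjusted p under 0.05 the shares of all probe sets were 17.7% for BPA against vehicle, 8.88% for EE2 against vehicle, 4.22% for BPA against EE2 and 8.19% for ERKO against WT, and 0 of 8 keratins reached it in any of them. The median log2 change was 0.37 over the keratins and 0.68 over all probe sets for BPA against vehicle, 0.13 and 0.40 for EE2 against vehicle, and 0.18 and 0.38 for ERKO against WT.

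As deposited, Krt19 had the largest change with BPA in the epithelium. Its signals were 186.3, 338.3 and 169.7 in ERKO and 82.5, 265.2 and 489.8 in WT glands after BPA, against 22.1, 153.3 and 102.0 in ERKO and 120.0, 55.5 and 113.5 in WT glands after vehicle. After BPA 5 of 6 arrays lay above all 6 vehicle arrays. The log2 change was 1.46 (standard error 0.76, adjusted p = 0.316 from limma), and 0.56 once the median of each array was subtracted, a scale on which the values of Krt17, Krt5, Krt8 and Krt14 lay below 0 and farther from it. Other measures differed between these groups too. The Gapdh 3′ to 5′ ratio averaged 7.19 ± 1.61 after BPA and 10.6 ± 1.77 after vehicle (SD, n = 6 each). The Actb ratio overlapped between them, at 1.02 to 1.14 after BPA and 0.783 to 1.15 after vehicle. The 9 adipocyte markers summed to between 9935 and 54572 (median 39538) after BPA and between 5046 and 43568 (median 16537) after vehicle, and the 11 endothelial markers to between 532 and 5214 (median 3008) after BPA and between 94.2 and 4539 (median 511) after vehicle. Their part in the Krt19 signals was not tested. After EE2 it had 424.4, 125.9 and 15.7 in ERKO and 258.3, 269.1 and 57.1 in WT glands, a log2 change of 0.61 (0.76, adjusted p = 0.812).

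Neither Krt8 nor Krt18 passed for BPA or EE2 against vehicle as deposited. Krt8 averaged 2636 ± 875 after BPA, 2371 ± 765 after EE2 and 2492 ± 1030 after vehicle (SD, n = 6 each), with log2 changes of 0.12 for BPA and −0.03 for EE2 (standard error 0.37 each). Krt18 averaged 2844 ± 589 after BPA, 2515 ± 514 after EE2 and 2107 ± 608 after vehicle (SD, n = 6 each), with log2 changes of 0.46 for BPA and 0.28 for EE2 (standard error 0.33 each). The array medians were 51.4 ± 12.7 after BPA, 40.7 ± 14.7 after EE2 and 29.3 ± 12 after vehicle (SD, n = 6 each). Relative to the array median, the BPA change of Krt8 was −0.78 and that of Krt18 was −0.45, so the direction of both depended on this scaling and neither passed.

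No basal keratin passed for BPA or EE2 against vehicle as deposited. For BPA against vehicle the log2 changes were 0.04 for Krt5, 0.28 for Krt14, 1.11 for Krt15 and −0.12 for Krt17, with standard errors of 0.65, 0.43, 1.13 and 0.40. With the array median subtracted the changes of Krt5, Krt14 and Krt17 were −0.86, −0.63 and −1.02 and that of Krt15 was 0.20. For EE2 against vehicle they were 0.05, 0.21, 0.85 and 0.04 as deposited, and −0.48, −0.33, 0.32 and −0.50 with the array median subtracted. The size of the Krt14 change depended on the probe set. The brighter of its other probe sets gave 0.89 for BPA and 0.82 for EE2 as deposited (standard error 0.44 each), and neither passed. Without the epithelium array of WT vehicle gland 3 the changes as deposited were 0.55 for BPA and 0.57 for EE2 in Krt5 and 1.97 for BPA and 1.71 for EE2 in Krt15, and none passed.

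ERKO and WT epithelium overlapped for all 8 keratins. Krt8 averaged 2438 ± 815 in ERKO and 2561 ± 928 in WT, and Krt14 averaged 1058 ± 337 in ERKO and 945 ± 437 in WT (SD, n = 9 each). Log2 changes for ERKO against WT ran between −0.37 for Krt19 and 0.70 for Krt7, and with the array median subtracted they ran between −0.89 for Krt19 and 0.19 for Krt7. Without WT vehicle gland 3 the change of Krt15 was 1.09 in place of 0.51 and that of Krt5 was 0.22 in place of −0.13, neither of which passed. At the probe sets that stood for the genes, the smallest adjusted p as deposited was 0.687 for Krt17 (232 ± 72.9 in ERKO and 177 ± 84.6 in WT, log2 change 0.45, standard error 0.33, from limma). The brighter of the other Krt14 probe sets had a log2 change of 0.68 (standard error 0.36), against 0.22 at the one that stood for Krt14, and did not pass.

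Krt15 had the widest spread of the keratins in the epithelium (SD of log2 signal 2.17) and the largest changes within a genotype. In ERKO epithelium its signals were 39, 12.6 and 67.8 after BPA, 49.1, 65.6 and 6.5 after EE2, and 1.7, 7.3 and 3.2 after vehicle. In WT epithelium they were 3.4, 12.3 and 15 after BPA, 16.7, 15.8 and 1.3 after EE2, and 34.5, 0.8 and 191.5 after vehicle, the last from the gland with epidermal transcripts. In ERKO epithelium the log2 change for BPA against vehicle was 3.24, against a median of 0.74 over all probe sets, and did not pass (adjusted p = 0.453 from limma). The ERKO vehicle signals lay under the medians of their arrays, which were 26.2, 42.8 and 21.2. In WT epithelium the BPA change was −1.02, and 0.70 without the gland with epidermal transcripts. The difference between the genotypes in the BPA change was 4.26 (standard error 2.26, adjusted p = 1.00 from limma) with that gland and 2.53 (standard error 2.06, adjusted p = 1.00) without it.

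**Figure D4:**
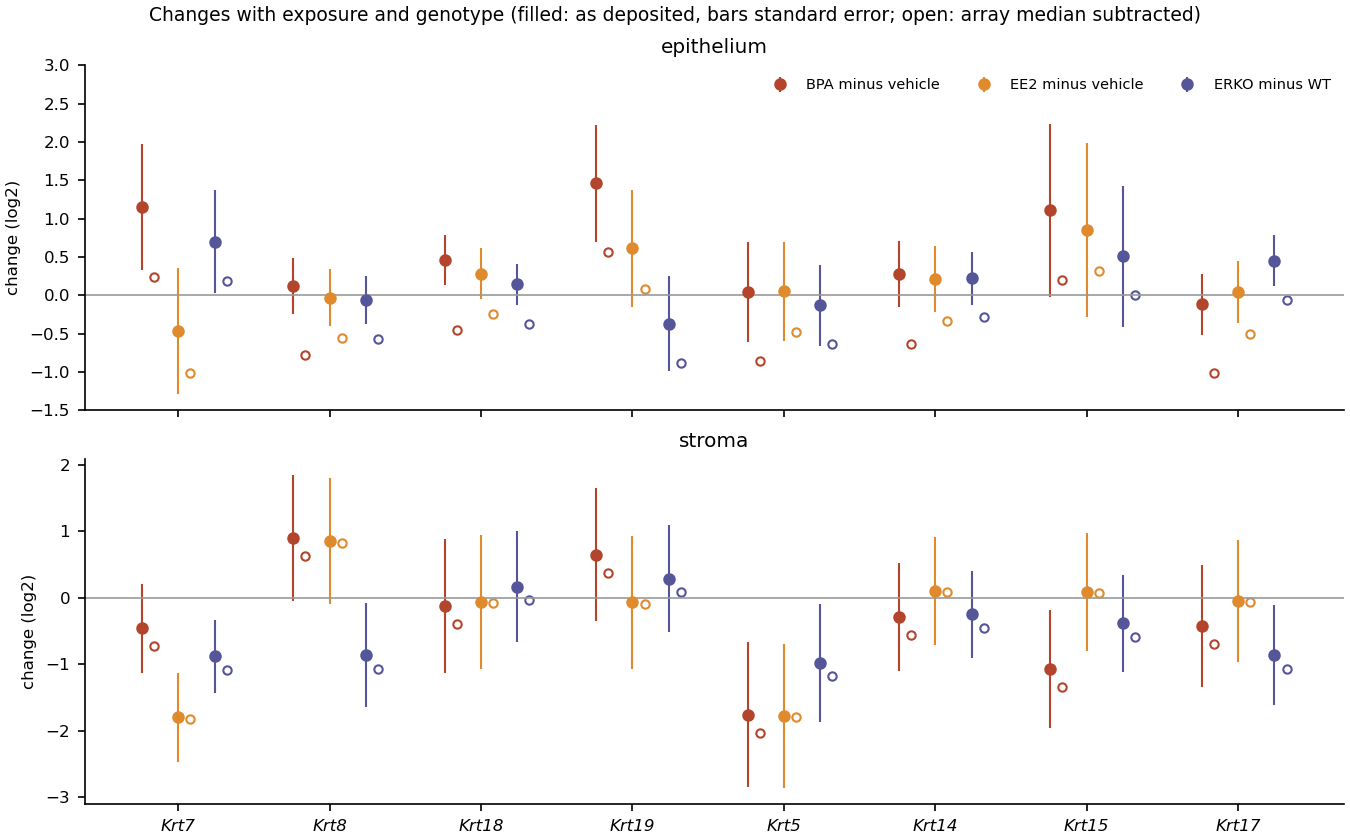
Log2 change of each keratin with BPA, EE2 and ERKO in the epithelium (top) and the stroma (bottom), filled symbols as deposited with standard errors from limma, open symbols with the array median subtracted. Within a comparison the subtraction moves every gene by the same amount, which takes Krt8 after BPA in the epithelium to −0.78 (open), against 0.12 as deposited (filled).

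In the stroma, none of the 8 keratins differed with exposure or genotype at an adjusted p under 0.05 in limma either. The called shares of all probe sets were 0% for BPA against vehicle, 0% for EE2 against vehicle, 0% for BPA against EE2 and 0.00222% for ERKO against WT. At an unadjusted p under 0.05 they were 4.54% for BPA against vehicle, 4.51% for EE2 against vehicle, 3.75% for BPA against EE2 and 3.82% for ERKO against WT, and among the keratins 1 of 8 reached it for EE2 against vehicle and 0 of 8 in the others.

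That gene was Krt7. Its stroma signals were 4.4, 1.4 and 2.3 in ERKO and 3.1, 8.6 and 5.1 in WT glands after EE2, against 15.8, 12.7 and 3.2 in ERKO and 27.2, 12.5 and 15.6 in WT glands after vehicle. All EE2 arrays lay below 5 of the 6 vehicle arrays, and ERKO vehicle gland 3 overlapped them. The log2 change was −1.80 (standard error 0.67, adjusted p = 0.996 from limma), with unadjusted p of 0.0160 in limma and between 0.00611 and 0.0434 over the alternatives. The change itself ran between −2.16 and −0.57 over them and was smallest with 16 added before log2. Apart from WT vehicle gland 2 (12.5, with an array median of 12), these signals lie under the median of their arrays, which in the stroma averaged 26.6 ± 2.34 after EE2 and 28.3 ± 10.9 after vehicle (SD, n = 6 each). In the epithelium Krt7 had a log2 change of −0.47 after EE2 (standard error 0.82, adjusted p = 0.875 from limma), and −0.07 without WT vehicle gland 3.

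Krt5 had the next largest stroma changes, −1.76 for BPA and −1.78 for EE2 against vehicle (standard error 1.09 each, adjusted p = 0.993 and 0.996 from limma). It averaged 55.5 ± 45.3 after BPA, 47.0 ± 54.9 after EE2 and 170 ± 256 after vehicle (SD, n = 6 each), and the 689.9 of WT vehicle gland 3 entered the vehicle mean. Without that array the changes were −1.22 for BPA and −1.24 for EE2. Both comparisons share the vehicle arrays. For Krt14 the BPA change in the stroma was −0.29 with that array and 0.31 without it.

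Krt17 in the stroma had signals of 11, 59.8 and 56.3 after BPA in ERKO glands, against 2.0, 11.8 and 30.2 after vehicle. In WT glands its signals after BPA were 37.8, 1.0 and 11, against 96.3, 14.9 and 86.2 after vehicle. The groups overlapped within each genotype. The difference between the genotypes in the BPA change was 4.64 on the log2 scale (standard error 1.83, adjusted p = 1.00 from limma).

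A further comparison took 28 pairs of keratins over the 18 epithelium arrays, on the log2 signal as deposited, and 22 of the correlations were positive. Krt18 and Krt19 were the closest pair, with Pearson's r = 0.68 (permutation p = 0.00172, adjusted p = 0.0482) and Spearman's rho = 0.72 (permutation p = 0.000860, adjusted p = 0.0241), and r was 0.67 without the 2 arrays farthest from the median of Krt18. For Krt8 and Krt18, the filament partners, r was 0.54 (permutation p = 0.0218, adjusted p = 0.125) and rho 0.53 (permutation p = 0.0258, adjusted p = 0.121), and without the 2 extreme arrays r was 0.44. For Krt5 and Krt14 r was 0.49 (permutation p = 0.0343, adjusted p = 0.127) and rho 0.38 (permutation p = 0.117, adjusted p = 0.287), and r was 0.18 without those arrays, so that this relation rested on them. The arrays come from 6 groups, and group differences enter these values.

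With the median of each array subtracted, the correlation of Krt8 with Krt18 was r = 0.89 (permutation p = 3.00e-05, adjusted p = 0.000840) and rho = 0.84 (permutation p = 2.00e-05, adjusted p = 0.000560), and r was 0.75 without the 2 extreme arrays. Krt8 with Krt14 then had r = 0.82 and Krt14 with Krt17 r = 0.75, each past the threshold with both measures. Krt18 with Krt19, the only pair past it as deposited, no longer passed. Its r was 0.46 (permutation test, adjusted p = 0.203) and its rho 0.51 (permutation test, adjusted p = 0.148). Subtracting 1 value per array from both genes adds a shared part to such correlations, and the SD of log2 Krt8 over the epithelium arrays was 0.88 after it and 0.47 before it. In the stroma none of the 28 pairs passed with either scale, although the 6 pairs of basal keratins all had a positive r, of 0.30 to 0.59 as deposited. Without the 2 extreme arrays r as deposited was 0.20 for Krt5 with Krt14, 0.27 for Krt5 with Krt15 and 0.20 for Krt14 with Krt15, against 0.58, 0.59 and 0.59 with them. Without WT vehicle gland 3 alone these values were 0.41, 0.40 and 0.30. With the array median subtracted, r without the 2 extreme arrays was 0.39, 0.75 and 0.32 for these pairs, against 0.58, 0.60 and 0.60 with them. How far these relations rested on those arrays thus depended on the scale and the pair.

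**Figure D5:**
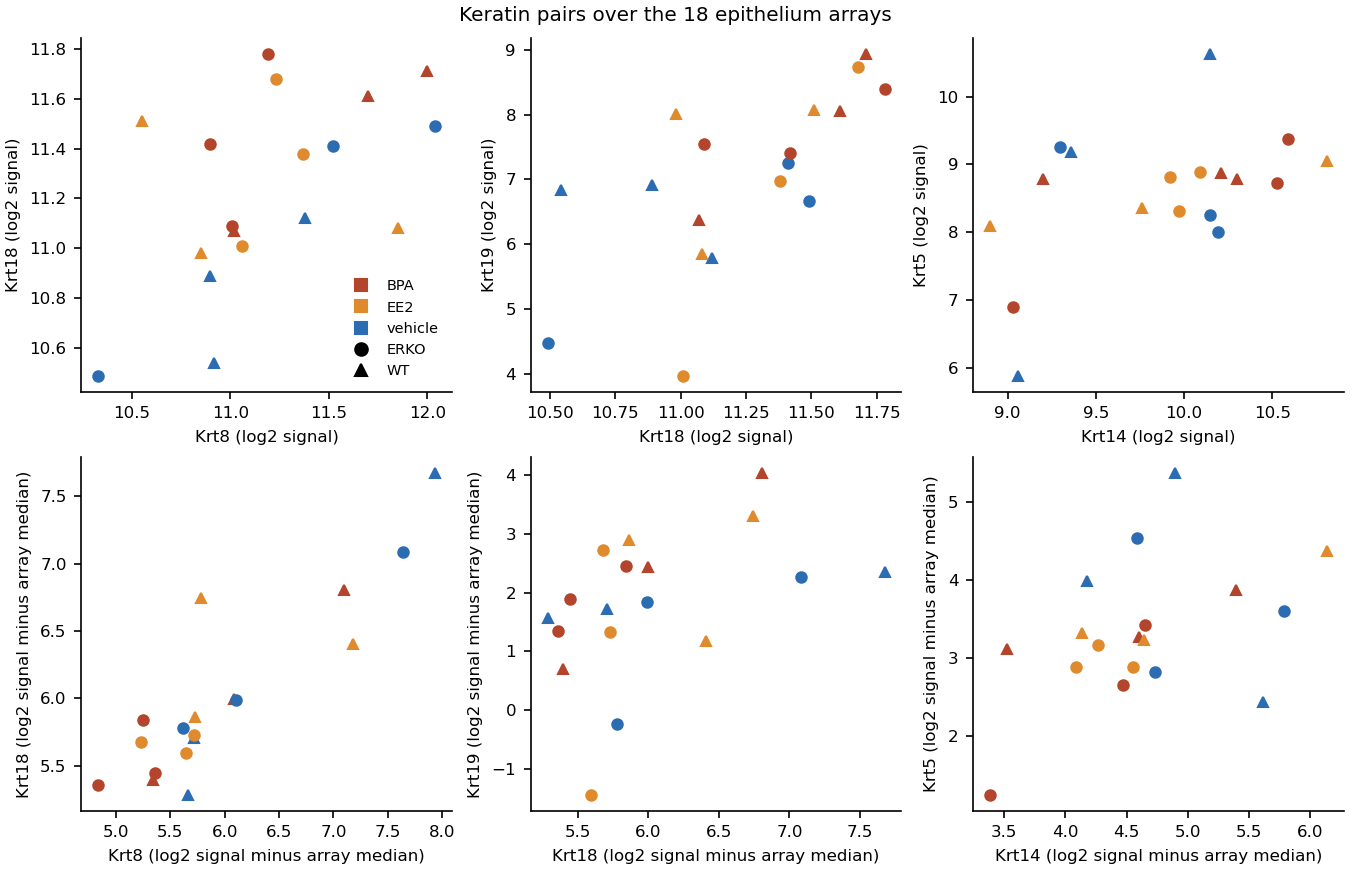
Log2 signals of 3 keratin pairs over the 18 epithelium arrays, as deposited (top) and minus the array median (bottom), colored by exposure, with circles for ERKO and triangles for WT. Krt8 and Krt18 lie along a line more tightly in the lower panel (r = 0.89) than in the upper one (r = 0.54).

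The 8145 genes with a mean signal of at least 100 over all 36 arrays were ranked by the Pearson correlation of their quantile normalized log2 signal with that of a keratin over the 18 epithelium arrays. For Krt8 the closest were Abl1 (r = 0.84), Sh3bp1 (0.82), Aspm (0.81), Cpd (0.81) and Ep300 (0.80), and Krt18 came at rank 860 with r = 0.41. For Krt14 they were Sostdc1 (r = 0.80), Sncaip (0.77), Gsr (0.75), Psapl1 (0.74) and Myb (0.74), and Krt5 came at rank 685 with r = 0.36. The values describe these arrays, which share library preparation and the group differences, and no test was made.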

How the data were processed

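Gene expression was measured on 36 Affymetrix mouse genome arrays, 3 in each of 12 groups, from RNA of laser-captured compartments. The authors deposited 1 intensity per probe set and array on a linear scale, although their methods name RMA and a log scale. How the arrays were scaled to each other is not given in the sources used here. The submitters' processing notes name GCOS. No scaling was added. Intensities under 0.1 (39 were listed at 0) were set to 0.1 and taken to log2. Of 45101 probe sets, 34958 have 1 symbol in the platform annotation, 932 several and 9211 none.

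Compartments were compared in R 4.3.3 with limma 3.58.1 (lmFit and eBayes, statmod 1.5.0), with the gland as a block, because the methods take both captures from 1 animal. The captures of a gland were matched by replicate number within a genotype and exposure, and the labels do not say that these numbers match. Exposures and genotypes were compared in each compartment over its 6 groups without a block, as the methods do. P-values were adjusted by Benjamini-Hochberg over all probe sets, with 0.05 as threshold. Residuals of both captures of a gland correlated at a mean r of 0.0774, with 7 of 18 pairs over 0.1. Across genotypes, captures with the same replicate number had a mean r of 0.0312 in the epithelium (0 of 9 pairs over 0.1) and 0.00254 in the stroma (0 of 9), so the numbers were not used as pairs. This does not show that littermates were absent, and the arrays of an exposure were treated as independent.

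Correlations used 100000 permutations in Python 3.11.15 with numpy 2.4.6, scipy 1.17.1, pandas 2.3.3 and matplotlib 3.10.9. The fits were tested on simulated data with independent normal noise in each probe set and no shared gland or array effect. With 200 probe sets changed by 2 on the log2 scale, the compartment fit recovered 46.0%, the BPA fit 13.5% in the epithelium and 2.50% in the stroma. With a change of 4 they recovered 98.5%, 67.0% and 69.5%. The adjusted threshold depends on how many probe sets differ. These shares therefore need not hold where many more than 200 differ, as between the compartments. Alternatives were quantile normalization, subtraction of the array median, 16 added before log2, a mean signal of at least 50, trend and robust moderation, array weights, the mean of all probe sets of a gene, leaving out each array or gland, other block settings, and the tests of the methods. Genes named were the 8 keratins, up to 4 examples of largest change per list with members that did not pass, the 5 brightest other keratins, and the 5 genes most correlated with Krt8 and Krt14. Further list members, and the arrays and glands singled out, were named after their values were seen. The members and lists were chosen with earlier results of these data known.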

Additional observations from a re-analysis of the deposited data

Results flagged for a closer look

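The 6 arrays of an exposure in a compartment, both genotypes together, were searched for a value far from the other 5, in 48 sets of 6 arrays. By chance about 1 in 20 such sets has one. Krt7 in the stroma of ERKO vehicle gland 3 was 3.2, below the 12.5 to 27.2 of the other vehicle stroma arrays. Krt5 in the epithelium of ERKO BPA gland 1 was 119.3, below the 422.4 to 662.6 of the other BPA epithelium arrays, and the stroma of that gland had the lowest Krt5 of all arrays, 1.2. Both captures of ERKO BPA gland 1 had high skeletal muscle sums, whose part in these values was not tested. In the stroma of WT vehicle gland 3, Krt5 was 689.9, above 39.9 to 95.1 in the other vehicle stroma arrays, and Krt15 was 66.5, above 1.3 to 5.3. This is the gland whose 14 epidermis markers summed to 23266 in the stroma. The part of these markers in both values was not tested.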

How the results depend on the processing

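The 8 keratins were called higher in the epithelium under each alternative in which they were tested. The filter on mean signals of at least 50 left 6, all called, without Krt7 and Krt15. Leaving out each of the 18 glands in turn kept all 8. No called keratin value changed direction. Without the gland block 8 keratins and 7532 probe sets were called. With the replicate number as a block, or exposure and number together, 0 keratins were called in the exposure and genotype comparisons, and Krt19 had 1.46 for BPA against vehicle in the epithelium (adjusted p = 0.331 from limma). The count of probe sets differing between compartments was 9607, against 5476 genes with the mean of all probe sets of a gene.

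The t-test of the methods was run here with both genotypes together, or all exposures together for ERKO against WT. The paper tested its focal adhesion and apoptosis genes in WT glands alone. Without adjustment and for changes of 2-fold or more, the t-test called 1 keratin for BPA against vehicle in the epithelium (Krt19). It called 1 for EE2 against vehicle in the stroma (Krt7). The methods' comparison of all exposures, also with both genotypes together, called 1 in the stroma (Krt7). That t-test called 4852, 1938, 1297 and 2177 probe sets in the epithelium for BPA and EE2 against vehicle, BPA against EE2, and ERKO against WT. In the stroma it called 1332, 1390, 1344 and 1207 in the same order. The comparison of all exposures called 4983 in the epithelium and 1760 in the stroma. After Benjamini-Hochberg adjustment the t-test called 3 for BPA and 0 for EE2 against vehicle in the epithelium and 1 for BPA against EE2 in the stroma.

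In limma, BPA against vehicle in the epithelium had 0 calls as deposited, 1 with 16 added, 3 with the filter and 7 with array weights. EE2 against vehicle had 1 call there, and 0 after quantile normalization, array median subtraction, array weights or gene means. ERKO against WT in the stroma had 1 call, and 0 with 16 added, the filter or gene means. Leaving out single arrays gave 0 to 229 calls for BPA in the epithelium (229 without WT vehicle gland 3, 61 without WT vehicle gland 1, 50 without ERKO vehicle gland 2), 0 to 10 for EE2 (10 without WT vehicle gland 3) and 0 to 5 for ERKO there (5 without WT vehicle gland 1). In the stroma it gave 1 to 2 for ERKO (2 without WT EE2 gland 3), and leaving out single glands gave 0 to 2 for the compartment difference with BPA (2 without WT BPA gland 1). The cause was not tested. In none of these limma settings was a keratin called for an exposure or genotype. The dim Krt7 and Krt15 limit what can be seen of them.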

Other observations

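The array measured 40 other keratins, mostly those of hair, nail and differentiated epidermis. In limma 6 of them were higher and 1 was lower in the epithelium, where 16.8% of all probe sets were called higher and 4.51% lower, so both shares were near those of all probe sets. Their median log2 difference was 0.27, against 0.35 over all probe sets. Of the 5 brightest, only Krt23, a type I keratin, passed. It had signals of 70.4 to 486 (median 235) in the epithelium and of 11.9 to 121 (median 31.5) in the stroma, and was higher in the epithelium by 2.79 (standard error 0.29, adjusted p = 9.79e-07 from limma). Its compartments overlapped. Krt10 and Krt1, the pair of differentiating epidermis, had medians of 119 and 17.2 in the epithelium and 70.2 and 10.7 in the stroma. Without WT vehicle gland 3 the mean of Krt10 was 130 in place of 401, still among the 5 brightest, while Krt1 was no longer among them. Krt42 and Krt34 did not pass, at 0.66 and −0.10. The others that were higher were Krt20 (1.52), Krt80 (1.48), Krt27 (1.36), Krt86 (1.01) and Krt88 (0.83). Krt16, which is induced in stressed epidermis, was lower, at −1.01 (adjusted p = 0.0346 from limma). All of these were dim. Their mean signals over all arrays were 13.5 for Krt20, 38.5 for Krt80, 6.42 for Krt27, 14.2 for Krt86, 27.7 for Krt88 and 9.43 for Krt16. At such signals the log2 differences do not show that a gene was expressed in either compartment.

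Of 14 intermediate filament genes outside the keratins, 2 were higher and 1 was lower in the epithelium, again near the shares of all probe sets, with a median of 0.13. Synm, a filament protein of muscle that also occurs in other cells, was higher by 2.10 (adjusted p = 0.00204 from limma) and Lmnb1, a lamin of the nucleus, by 0.95 (adjusted p = 0.00101). Des, the filament protein of muscle, was lower, at −1.66 (adjusted p = 0.00948 from limma). Vim, the filament protein of mesenchymal cells, did not pass at −0.39 (adjusted p = 0.0641 from limma).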
